A study of Mus musculus with 6 samples.

Results

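The IGF binding protein genes were followed in messenger RNA of sorted Mvt1 cells as the 6 symbols Igfbp2, Igfbp3, Igfbp4, Igfbp5, Igfbp6 and Igfbp7, out of 14766 gene annotations in the deposited counts. A member's value was the sum of the counts of every read sequence annotated to exactly that symbol. Igfbp4, Igfbp6 and Igfbp7 had reads, and Igfbp2, Igfbp3 and Igfbp5 had none in any library, so 3 of the 6 members passed the filter on low counts. Mvt1 is a mouse mammary carcinoma line of strain FVB/N that the labels describe as epithelial. Its cells were stained for CD24, a surface protein held by a lipid anchor, sorted into CD24- and CD24+ populations and grown as adherent plates in DMEM with fetal bovine serum. The data are 3 libraries of CD24- cells and 3 of CD24+ cells, 1 from each plate, with 9046025 to 25692147 mapped reads and 6491833 to 19100844 gene reads. No agent was given and no genotype was changed, both populations come from a single line, and independent sorts are not described, so p-values here reflect only how much plates of 1 sorted population vary. CD24- replicates 1 and 2 were far closer to each other (chi-square per degree of freedom 1.75 over genes) than any other pair of a group (9.69 to 15.9). CD24- replicate 3 differed from them by 10.2 and 11.9, within the range of the CD24+ pairs. The cause of the closeness of replicates 1 and 2 was not tested. Without CD24- replicate 3 the log2 fold changes reported below would be -0.54 for Igfbp4 (adjusted p = 0.00413, edgeR) and 1.89 for Igfbp7 (adjusted p = 7.51e-06, edgeR). These p-values rest on that close pair as the whole CD24- group. The main test also counts both libraries of the pair among its 3 CD24- libraries. Without CD24- replicate 1 or 2, Igfbp4 was not called (adjusted p = 0.103 and 0.132, edgeR). Igfbp7 was still called without either (adjusted p = 2.06e-05 and 1.57e-05, edgeR).

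Insulin-like growth factors (IGFs) are secreted peptides that drive growth and survival through the IGF1 receptor, and most of the IGF in tissue fluid is held by binding proteins. The classical binding proteins (IGFBP1 to IGFBP6, the products of Igfbp1 to Igfbp6) bind IGFs tightly, keep them from the receptor, and release them when a protease cleaves the binding protein. IGFBP7 shares the amino-terminal domain, binds IGFs weakly and is mostly known as a matrix-associated protein of the vessel wall and other stroma. In the mammary gland these proteins are known for their part in ductal growth and in involution after lactation.

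Of the 6 members, 1 was higher and 1 lower in CD24+ cells. Igfbp7 was 3.67-fold higher in CD24+ cells without overlap of the groups. Such a lack of overlap, in either direction, was common, at 57.3% of all 11125 tested genes. Igfbp4, with more reads than Igfbp7 in each library, was 1.33-fold higher in CD24- cells, but its groups overlapped and its call was lost when any of 4 of the 6 libraries was left out. Igfbp6 was detected in each library, at a low level, and did not pass the test. For comparison, edgeR's quasi-likelihood test called 5130 of 11125 genes at an adjusted p under 0.05 (46.1%), of which 2652 were higher (23.8%) and 2478 lower (22.3%) in CD24+ cells, so a call was common in this comparison. The median log2 fold change over all tested genes was 0.016. Values below are in CPM, edgeR's unit for counts scaled to library size, taken here over gene reads with TMM factors, and a log2 fold change is CD24+ over CD24-. In bulk RNA, fewer cells with a transcript and less of it per cell cannot be told apart.

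**Figure D1:**
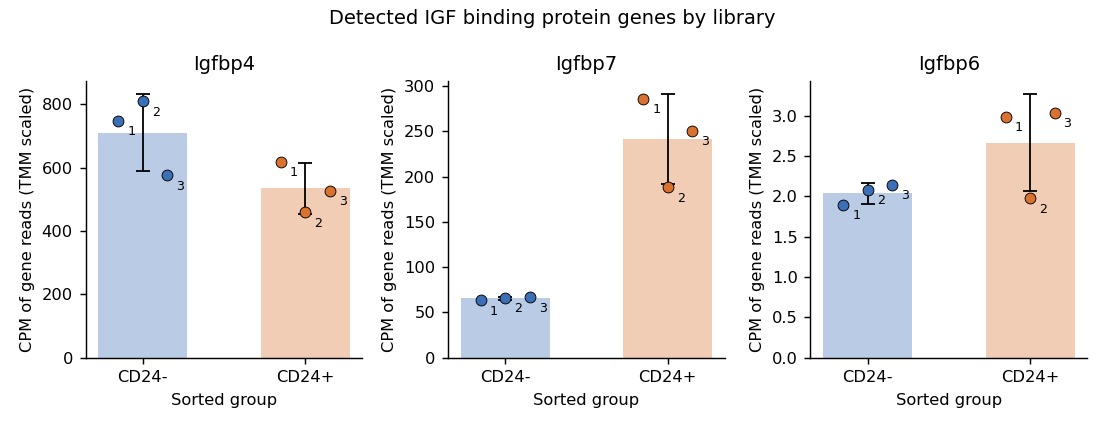
CPM of Igfbp4, Igfbp7 and Igfbp6 in each library, with CD24- in blue and CD24+ in orange. Bars are means of 3 libraries, whiskers are SD, and points carry the replicate number. The CD24+ points of Igfbp7 sit between 188 and 286, above all CD24- points at 63.5 to 66.9, while the points of Igfbp4 overlap between 575 and 619.

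Igfbp7 encodes the matrix-associated, low-affinity member. It lies on the minus strand of chromosome 5 of GRCm38 from 77349240 to 77408041 (ENSMUSG00000036256.13), and its deposited reads lay on chromosome 5 of mm9 from 77778224 to 77837097. The coding 47-base windows with the most reads that did not overlap each other are shown as examples of the reads behind the values, with 166 and 146 of the 11826 Igfbp7 reads. They are written on the sense strand, the first from chr5:77784616-77784662 and the second from chr5:77780952-77780998 of mm9.
Igfbp7 window 1: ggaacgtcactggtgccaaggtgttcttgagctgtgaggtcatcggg
Igfbp7 window 2: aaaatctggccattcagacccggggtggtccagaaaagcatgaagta
Window 1 was read 13, 12 and 11 times in CD24- replicates 1, 2 and 3, and 22, 54 and 54 times in the CD24+ replicates. In CPM that made 1.37, 1.14 and 1.24 in CD24- and 3.46, 3.05 and 2.83 in CD24+ libraries. Window 2 was at 0.631, 0.853 and 0.451 CPM in CD24- and at 2.83, 2.54 and 3.35 CPM in CD24+ libraries. In both windows each CD24+ library was above each CD24- library.

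Over the whole gene, Igfbp7 had 604, 699 and 594 reads in CD24- replicates 1, 2 and 3, and 1817, 3335 and 4777 reads in CD24+ replicates 1, 2 and 3. Its levels were 63.5, 66.2 and 66.9 CPM in CD24- libraries and 286, 188 and 250 CPM in CD24+ libraries. The CD24- libraries were nearly level, the CD24+ libraries spread more widely, and the groups did not overlap. The means were 65.6 ± 1.79 and 241 ± 49.4 CPM (SD, n = 3 each). The log2 fold change was thus 1.88 (SE 0.14, 95% interval 1.57 to 2.18, Benjamini-Hochberg adjusted p = 2.5e-06, edgeR). With each distinct sequence counted once, a measure that saturates in abundant genes, the log2 fold change was 1.01 (adjusted p = 0.00101, edgeR).

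Along the transcript, counting all reads that match it whatever their annotation, the higher Igfbp7 level of CD24+ cells was not limited to any segment. Reads within coding sequence rose from 44.1 ± 1.36 to 170 ± 38.5 CPM and reads of the 3′ untranslated region from 16.6 ± 1.58 to 64.3 ± 12.5 CPM (SD, n = 3 each), ratios of 3.85 and 3.87 without overlap of the groups. For reads that lie within a single exon, CD24+ over CD24- was 4.26 in exon 1, 3.43 in exon 3, 3.63 in exon 4, 3.39 in exon 5 and 3.86 in exon 6 of the 6-exon GENCODE transcript. Exon 2 of that transcript, 93 bases long, was almost without reads. Only 16 reads over all 6 libraries fell within it, 0.34 for each position where a read could start, against 8.35 to 26.8 for the other exons. It is absent from another GENCODE transcript of the gene. Which form the cells made was not tested, because exact matching loses the reads across exon junctions. All 16 were annotated to a DNA repeat, so they are not in the deposited count of the gene. Of the reads annotated to Igfbp7 that match its transcript, the share within coding sequence was 73.0%, 72.3% and 72.9% in CD24- and 72.7%, 71.4% and 73.8% in CD24+ libraries. These ranges overlap, and the exact two-sided permutation test over libraries gave p = 0.8, where 3 against 3 libraries allow no p below 0.1.

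**Figure D2:**
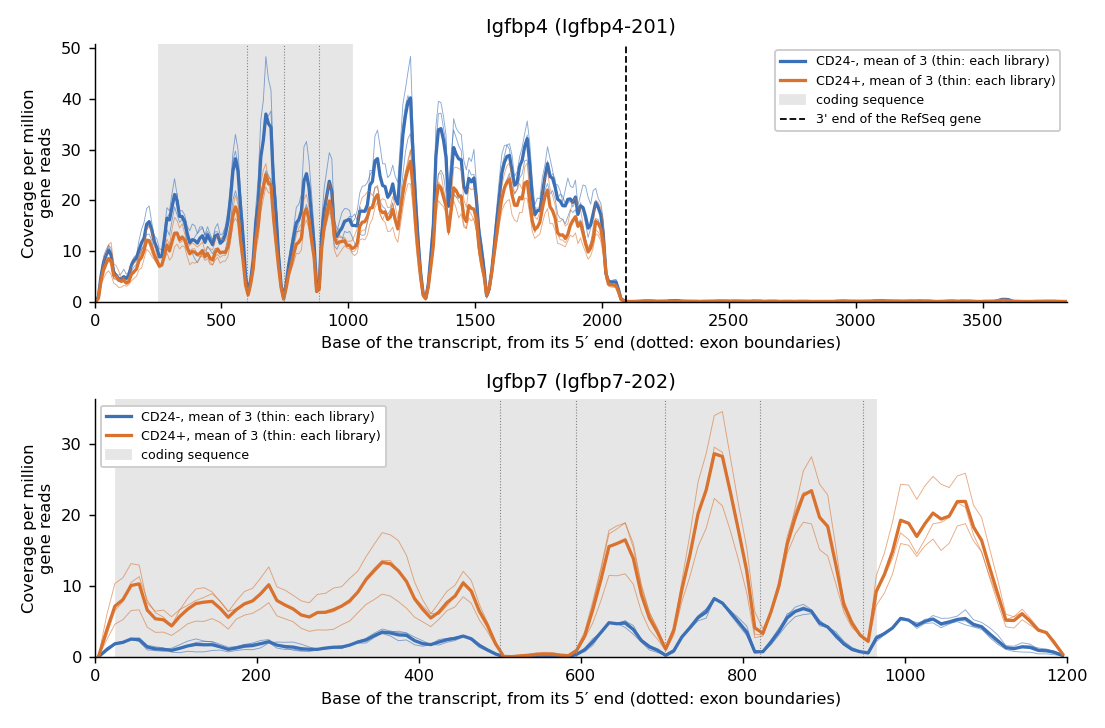
Read coverage, scaled as CPM, along 1 GENCODE transcript each of Igfbp4 and Igfbp7, from the 5′ end, in bins averaged over neighbouring bases. Thick lines are group means of 3 libraries, thin lines single libraries, grey the coding sequence and dotted lines exon boundaries, where exact matching to the genome loses reads. Igfbp7 coverage is higher in CD24+ (orange) along all its covered exons and close to 0 over exon 2. Igfbp4 coverage falls to near 0 at the dashed 3′ end of the RefSeq gene, base 2094 of 3831.

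Igfbp4 encodes an inhibitory binding protein that keeps IGFs from their receptor until the protease PAPP-A cleaves it. It lies on the plus strand of chromosome 11 of GRCm38 from 99041244 to 99054392 (ENSMUSG00000017493.12), with 4 exons, and its deposited reads lay on chromosome 11 of mm9 from 98902531 to 98913968. Its leading coding windows, at chr11:98909588-98909634 and chr11:98903083-98903129 of mm9 on the plus strand, are shown for comparison with those of Igfbp7.
Igfbp4 window 1: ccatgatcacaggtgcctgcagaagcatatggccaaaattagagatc
Igfbp4 window 2: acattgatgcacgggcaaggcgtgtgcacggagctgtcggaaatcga
Window 1 was read 50, 66 and 34 times in CD24- replicates 1, 2 and 3, and 19, 61 and 76 times in the CD24+ replicates. That made 5.26, 6.25 and 3.83 CPM in CD24- against 2.99, 3.44 and 3.98 CPM in CD24+ libraries. Window 2 was at 3.05, 4.45 and 1.69 CPM in CD24- and at 3.15, 1.47 and 2.36 CPM in CD24+ libraries. In contrast to the windows of Igfbp7, the groups overlapped in each of these windows.

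Igfbp4 had 7109, 8535 and 5106 reads in CD24- replicates 1, 2 and 3, and 3937, 8124 and 10072 reads in CD24+ replicates 1, 2 and 3. Its levels were 748, 809 and 575 CPM in CD24- libraries and 619, 459 and 528 CPM in CD24+ libraries. CD24- replicate 3 lay below CD24+ replicate 1, so the groups overlapped. The means were 711 ± 121 and 535 ± 80.6 CPM (SD, n = 3 each). The log2 fold change was thus -0.41 (SE 0.14, 95% interval -0.72 to -0.10, Benjamini-Hochberg adjusted p = 0.0351, edgeR). The call was lost when any of 4 libraries was left out, namely CD24- replicate 1 (adjusted p = 0.103), CD24- replicate 2 (0.132), CD24+ replicate 2 (0.0934) and CD24+ replicate 3 (0.085). It was also lost with each distinct sequence counted once (log2 fold change -0.26, adjusted p = 0.298, edgeR), and the direction held under each alternative.

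The lower Igfbp4 level was of like size along the gene, with all reads that match the transcript counted. CD24- over CD24+ was 1.35, 1.42, 1.37 and 1.31 in exons 1 to 4, 1.37 in coding sequence and 1.31 in the 3′ untranslated region, with overlapping groups in each. Reads within coding sequence alone gave a log2 fold change of -0.47 (adjusted p = 0.0148, edgeR). The coding share of the reads annotated to Igfbp4 was 34.7%, 34.7% and 33.5% in CD24- and 32.8%, 33.7% and 33.3% in CD24+ libraries (exact permutation test, two-sided, p = 0.2). GENCODE gives Igfbp4 a transcript of 3831 bases, but 99.7% of the reads that match it lay before base 2094, where the RefSeq gene ends. The 1737 bases after that point held 133 reads over all libraries, none of them annotated to Igfbp4. Coverage was also near 0 at bases 1292 to 1308 and 1543 to 1551 of the transcript, within the last exon, against a median of 999.5 reads per base up to the RefSeq end. Both gaps were at the same place in both groups, and their cause was not tested.

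The 250 bases before a transcript start of each of the 2 genes that passed the test are shown as a description. Whether these sequences bear on the changes was not tested. For Igfbp4 that start is base 99041244, as in GENCODE, and the RefSeq gene begins further upstream, at 99040005. The sequences are RefSeq promoter windows of GRCm38.p6, 5′ to 3′ on the strand of the gene, from chr11:99040994-99041243 (plus strand) for Igfbp4 and chr5:77408046-77408295 (minus strand) for Igfbp7. Capitals mark the letters TATAAA and GGGCGG on either strand, and CCGCCC is GGGCGG read on the other strand.
Igfbp4 promoter: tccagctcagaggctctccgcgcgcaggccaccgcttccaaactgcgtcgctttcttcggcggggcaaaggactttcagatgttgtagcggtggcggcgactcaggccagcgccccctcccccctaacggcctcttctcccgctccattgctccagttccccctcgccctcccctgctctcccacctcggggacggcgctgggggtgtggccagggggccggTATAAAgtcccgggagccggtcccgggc
Igfbp7 promoter: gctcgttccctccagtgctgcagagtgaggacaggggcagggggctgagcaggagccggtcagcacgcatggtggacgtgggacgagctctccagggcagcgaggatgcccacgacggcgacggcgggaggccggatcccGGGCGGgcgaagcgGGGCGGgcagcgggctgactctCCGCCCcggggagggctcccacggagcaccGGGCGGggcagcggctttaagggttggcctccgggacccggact
The Igfbp4 window held TATAAA once, starting 28 bases before base 99041244, and no GGGCGG. The Igfbp7 window held no TATAAA and GGGCGG 4 times, 3 on the strand of the gene and 1 on the other. Over 32851 promoters of the same length, 12.4% held TATAAA and 32.7% held GGGCGG on either strand. Igfbp4 had 22 and Igfbp7 26 CG pairs, against a median of 6. A match is a description of these letters, and binding at these sites was not measured.

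Igfbp6 encodes the member that prefers IGF2 over IGF1. It lies on the plus strand of chromosome 15 of GRCm38 from 102144362 to 102149511. It had 18, 22 and 19 reads in CD24- replicates 1, 2 and 3, and 19, 35 and 58 reads in CD24+ replicates 1, 2 and 3. Its levels were 1.89, 2.08 and 2.14 CPM in CD24- and 2.99, 1.98 and 3.04 CPM in CD24+ libraries. CD24+ replicate 2 lay within the CD24- range, and the groups overlapped. The means were 2.04 ± 0.130 and 2.67 ± 0.599 CPM (SD, n = 3 each), and the log2 fold change of 0.36 did not pass the test (95% interval -0.23 to 0.95, adjusted p = 0.293, edgeR). With 171 reads in all, changes as large as that upper bound are within what these libraries allow. Its coding share, on 15 to 51 reads a library, was 50.0% to 80.0% (exact permutation test, two-sided, p = 0.5).

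Igfbp2, Igfbp3 and Igfbp5 had 0 reads in each of the 6 libraries. Igfbp3 encodes the main IGF carrier of the circulation, Igfbp2 a binding protein with an integrin recognition motif, and Igfbp5 the member best known from involution of the mammary gland. No read of any annotation matched their GENCODE transcripts either, which are 1307, 2421 and 6006 bases long. A count of 0 allows up to 3 reads, that is 0.105 CPM over the CD24- libraries together and 0.0692 CPM over the CD24+ libraries together, for counting error only. No fold is given because both groups were at 0. Igfbp2 and Igfbp5 are neighbours on chromosome 1 with 5457 bases between them, and Igfbp3 lies 3539 bases from Igfbp1 on chromosome 11. Igfbp1 and the related Igfbpl1 also had no annotated read, so both neighbouring pairs were without annotated reads.

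Levels of different members can be compared only per length of transcript. In CPM per kb, Igfbp4 stood at 195, 211 and 150 in CD24- and 162, 120 and 138 in CD24+ libraries. Igfbp7 stood at 53.0, 55.2 and 55.8 in CD24- and 238, 157 and 209 in CD24+ libraries. Igfbp6 stood between 1.70 and 1.93 in CD24- and between 1.78 and 2.73 in CD24+ libraries. In each CD24- library the order was thus Igfbp4, Igfbp7 and Igfbp6. In each CD24+ library Igfbp7 came first on the full GENCODE length. With Igfbp4 measured only up to the RefSeq end, a choice made after seeing the data, Igfbp4 came first in each CD24+ library, at 296, 219 and 252 CPM per kb. Igfbp7 kept its full 1200 bases there, including the 93 bases of its nearly unread exon 2. Read starts lost at exon boundaries were not taken off for either gene. The order of these members in CD24+ cells therefore depends on which length is used. Of the reads that match the Igfbp4 transcript, 99.7% lay before the RefSeq end. Igfbp6 was far below both in each library.

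As a share of the summed level of the 6 members per kb, Igfbp4 made up 78.1%, 78.7% and 72.2% in CD24- libraries and 40.2%, 43.0% and 39.5% in CD24+ libraries. Igfbp7 made up 21.2%, 20.6% and 26.8% in CD24- libraries and 59.2%, 56.4% and 59.8% in CD24+ libraries. The groups did not overlap for either gene, and the exact two-sided permutation test over libraries gave p = 0.1 for each, the smallest that 3 against 3 libraries can give. These shares nearly add up to the whole in each library, so the Igfbp4 test mirrors that of Igfbp7 and is no separate result. The level of Igfbp4 itself overlapped between the groups. With the RefSeq end of Igfbp4, its share was 86.7%, 87.1% and 82.6% in CD24- and 55.1%, 58.0% and 54.4% in CD24+ libraries, again without overlap. The mean share of Igfbp7 differed by 35.6 percentage points between the groups. It differed by 21.4 with each distinct sequence counted once and by 22.3 without division by length, and that of Igfbp4 by -35.5, -21.7 and -22.3. With the RefSeq end of Igfbp4, the mean share of Igfbp7 was 14.0% in CD24- and 43.6% in CD24+ libraries. The ratio of Igfbp4 to Igfbp7 per kb was 3.4 ± 0.618 in CD24- and 0.701 ± 0.0547 in CD24+ libraries on the GENCODE length, and 6.22 ± 1.13 and 1.28 ± 0.10 with the RefSeq end (SD, n = 3 each). For the summed level of the members, the groups were apart only when Igfbp4 was divided by its full GENCODE length. The last 1737 bases of that length held 0.29% of the reads that match the transcript. Per kb of GENCODE length the summed level was 250, 268 and 208 in CD24- and 403, 278 and 349 in CD24+ libraries, without overlap. With the RefSeq end of Igfbp4 it was 412, 443 and 333 in CD24- and 537, 378 and 463 in CD24+ libraries, and the groups overlapped. In CPM, without division by length, they overlapped as well, at 813, 877 and 645 in CD24- and 908, 649 and 781 in CD24+ libraries.

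**Figure D3:**
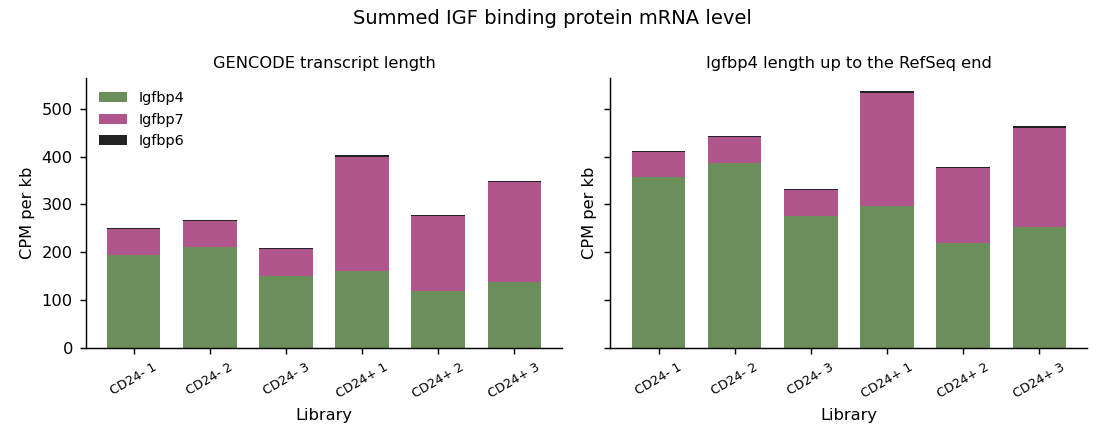
Stacked CPM per kb of Igfbp4, Igfbp7 and Igfbp6 in each library, with the GENCODE transcript lengths on the left and the Igfbp4 length up to the RefSeq end on the right. Igfbp7 makes up 20.6% to 26.8% of the bar in CD24- and 56.4% to 59.8% in CD24+ libraries on the left.

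The genes whose profile over the 6 libraries was most like that of a called member were found by the root mean square difference of centred log2 CPM among 9204 genes whose mean log2 CPM was 3 or more. For Igfbp7 they were Pck2 (difference 0.0493), a mitochondrial enzyme of phosphoenolpyruvate synthesis, and Serpinh1 (0.0749), a chaperone of collagen. Pck2 stood at 82.4, 83.7 and 86.7 CPM in CD24- and 357, 259 and 311 CPM in CD24+ libraries. Serpinh1 stood at 180, 206 and 192 CPM in CD24- and 776, 527 and 656 CPM in CD24+ libraries. Like Igfbp7, both were lowest in replicate 2 among the CD24+ libraries, a likeness that follows from how they were chosen. For Igfbp4 they were B3gnt3 (difference 0.0484), a glycosyltransferase, and Cdkn2aipnl (0.0489). By the same choice both were, like Igfbp4, highest in CD24- replicate 2 and lowest in CD24+ replicate 2. B3gnt3 stood at 70.4, 74.5 and 56.2 CPM in CD24- and 57.6, 41.1 and 52.1 CPM in CD24+ libraries.

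Around the members, 64 genes of the IGF axis were listed in 4 lists, 44 of which were tested. Calls went up in CD24+ cells for 17 and down for 13, and 14 did not pass, with a median log2 fold change of 0.27. Thus 30 of 44 were called, a larger share than the 46.1% of all genes. The lists were chosen with earlier results of these data known, so the larger share cannot be read as a result about these genes. The difference between these shares was not tested. Among ligands, receptors and adaptors, no read was annotated to Igf2 or Ins2, and 1 read over all libraries to Igf1. The IGF ligands thus had next to no annotated reads in these libraries. Reads of these ligands under other annotations were not looked for. Of the 10 genes in the list of ligands, receptors and adaptors, 5 were tested, 1 of them higher and 3 lower, with a median of -0.62. Igf1r, the signalling receptor, stood at 197 ± 12.4 CPM (SD, n = 3) in CD24- cells and at 173 ± 16.0 CPM (SD, n = 3) in the CD24+ ones, a difference of -0.18 on the log2 scale that missed the threshold (adjusted p = 0.128, edgeR). It did pass on reads within coding sequence alone (-0.32, adjusted p = 0.0159, edgeR). Igf2r, which takes up IGF2 for degradation, fell from 740 ± 101 to 483 ± 55.2 CPM, and Insr, the insulin receptor, from 94.4 ± 15.2 to 54.6 ± 7.54 CPM. The adaptors moved apart, with Irs1 rising from 2.11 ± 0.0925 to 13.2 ± 0.319 CPM and Irs2 falling from 25.3 ± 2.53 to 12.6 ± 2.08 CPM. An estimate after the study's methods takes the median coverage of a transcript and adds a regularizer of 10, which by its construction shrinks changes of low genes. On it Irs1 lost its call (log2 fold change 0.032 instead of 2.64, adjusted p = 0.525, limma), while Irs2 (-0.26) and Insr (-0.25) were smaller and still called.

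Of 18 genes for proteases of the binding proteins and their inhibitors, 12 were tested, with 5 higher, 4 lower and a median log2 fold change of 0.47. Pappa2, a protease that cleaves IGFBP3 and IGFBP5, fell from 82.5 ± 6.83 to 3.89 ± 0.968 CPM (SD of 3 libraries each), which is -4.40 on the log2 scale (adjusted p = 3.25e-08, edgeR). The genes of both its known substrates were without reads here. Pappa, whose product cleaves IGFBP4, had 4 reads over all libraries. Stc1, a stanniocalcin of the kind that inhibits these proteases, fell from 7.30 ± 0.566 to 0.269 ± 0.262 CPM, and Mmp3, a matrix protease, from 301 ± 50.6 to 29.3 ± 5.13 CPM. Timp3, an inhibitor of metalloproteases, rose from 4.25 ± 1.54 to 64.7 ± 12.6 CPM. C1s, a complement protease, rose from 2.08 ± 1.09 to 14.8 ± 4.80 CPM, and Mmp2, with few reads, from 0.377 ± 0.15 to 1.35 ± 0.338 CPM. On the median-coverage estimate Stc1 (log2 fold change -0.060, adjusted p = 0.484, limma) and C1s (0.11, adjusted p = 0.328, limma) lost their calls. Pappa2 (-0.48), Timp3 (1.16) and Mmp3 (-2.43) kept theirs at smaller sizes, and Mmp2 has no value there.

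Of 14 relatives that share the IGFBP domain without being members, 9 were tested, with 5 higher, 1 lower and a median log2 fold change of 0.36. Wisp1, a matricellular protein, rose from 6.42 ± 0.698 to 49.1 ± 6.95 CPM, Wisp2 from 2.89 ± 0.55 to 10.1 ± 2.73 CPM and Kazald1 from 0.569 ± 0.331 to 1.68 ± 0.276 CPM (SD, n = 3 each). Nov, of the same matricellular family as Wisp1, fell from 20.98 ± 2.70 to 6.70 ± 1.15 CPM. Of 23 binding partners at the cell surface and in the matrix, 19 were tested, with 7 higher, 5 lower and a median of 0.26. Fn1, fibronectin, rose from 206 ± 26.6 to 1659 ± 264 CPM, Thbs1, thrombospondin, from 194 ± 5.82 to 508 ± 133 CPM and Efnb2, an ephrin, from 71.9 ± 15.3 to 178 ± 12.4 CPM. The decreases in this list were smaller. Itgb3, an integrin subunit, fell from 6.82 ± 2.60 to 3.24 ± 0.696 CPM, Cd44, the hyaluronan receptor, from 574 ± 17.1 to 465 ± 30.8 CPM and Lrp6, a Wnt co-receptor that IGFBP4 can bind, from 129 ± 6.15 to 106 ± 13.2 CPM. Leaving out 1 library ended 4 of these calls. Cd44 lost its call without CD24- replicate 1 (log2 fold change -0.28), Itgb3 without CD24- replicate 2 (-0.92), Kazald1 without CD24- replicate 1 or CD24+ replicate 3 (1.34 and 1.33), and Lrp6 without CD24- replicate 1, 2 or 3 or CD24+ replicate 1 (-0.32 to -0.20). On the median-coverage estimate Itgb3 (-0.10, adjusted p = 0.23, limma) and Lrp6 (-0.15, adjusted p = 0.0926, limma) lost their calls. There Wisp1 (0.63), Wisp2 (0.25), Nov (-0.41) and Efnb2 (0.74) were smaller and still called, and Kazald1 has no value.

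**Figure D4:**
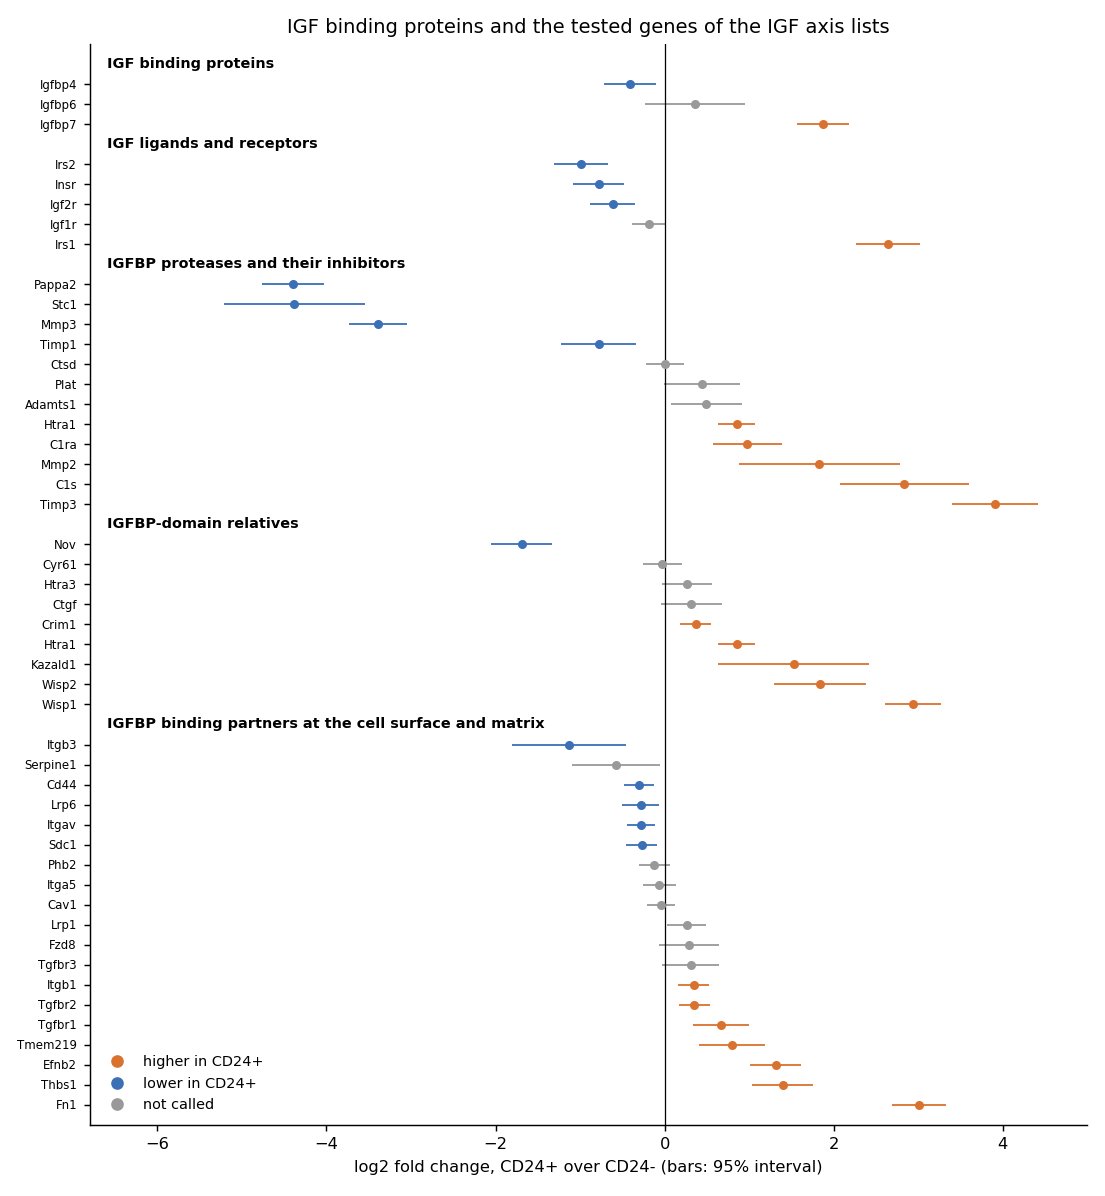
log2 fold change (CD24+ over CD24-, with 95% intervals from edgeR) of the 3 tested members and of the tested genes in the 4 IGF axis lists, with Htra1 in 2 of them. Orange points passed as higher, blue as lower in CD24+ cells, and grey points did not pass. Igfbp7 stands at 1.88 and Igfbp4 at -0.41, and the list genes reach from -4.40 (Pappa2) to 3.91 (Timp3).

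The sorted marker followed its label, with Cd24a at 12.1, 11.5 and 6.99 CPM in CD24- and 73.3, 85.5 and 72.5 CPM in CD24+ libraries. Markers of cell types moved with the groups as well. Of 6 luminal epithelial markers Krt8, Krt18 and Krt19 were lower in CD24+ cells, the summed level going from 1847 to 2040 CPM down to 759 to 902 CPM, while Epcam had 6 reads, Cdh1 had 2 and Elf5 none. Of 6 fibroblast markers Col1a1, Col3a1, Dcn and Pdgfra were higher, at 107 to 195 against 8.23 to 24.7 CPM, and Lum and Thy1 had no read. The sum of 6 basal markers was 6.61 to 14.1 against 0.316 to 1.04 CPM, with Acta2 higher and the others too low to be tested. The sum of 5 leukocyte markers was 7.11 to 9.44 against 46.9 to 80.9 CPM, with Cd68 and Itgam lower, Ptprc at 2 reads and Cd3e at 0. The sum of 5 endothelial markers was 0.681 to 1.89 against 2.25 to 4.07 CPM, with Cdh5 lower, and Pecam1 had 9 reads. The part of other cell states in the changes of Igfbp7 and Igfbp4 was not tested.

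**Figure D5:**
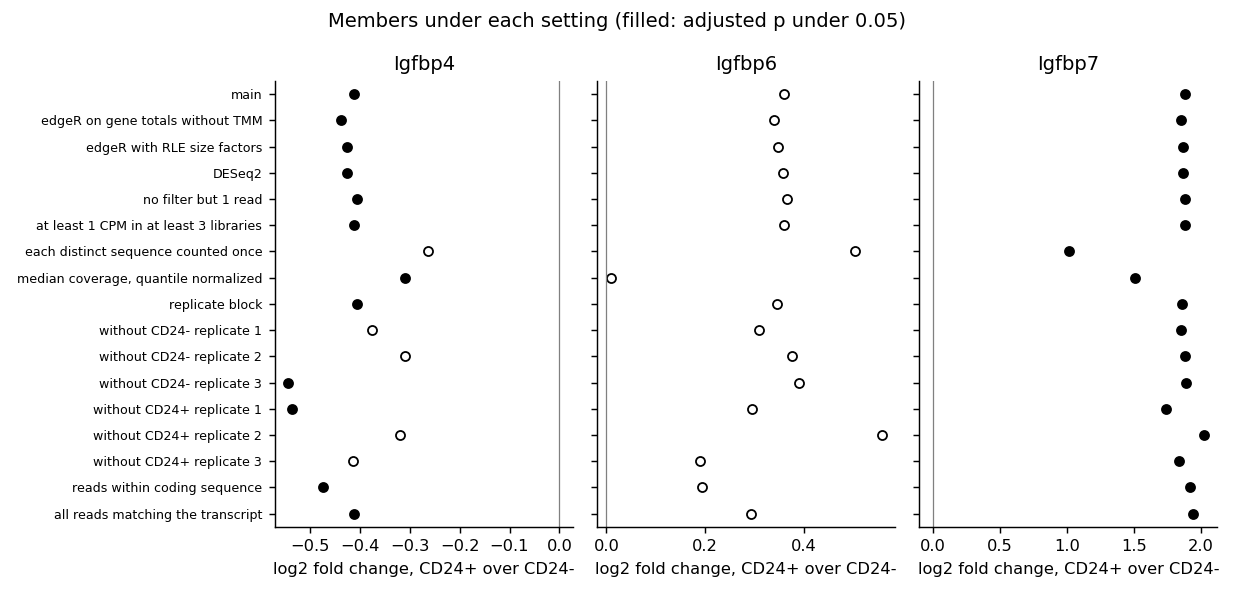
log2 fold change (CD24+ over CD24-) of Igfbp4, Igfbp6 and Igfbp7 in the main test (top) and under each alternative, with a separate scale for each gene. Filled points have an adjusted p under 0.05. Igfbp7 is filled throughout, between 1.01 and 2.02. Igfbp6 is open throughout, and Igfbp4 is below 0 throughout but open in 5 settings.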

How the data were processed

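mRNA of 3 plates each of CD24- and CD24+ Mvt1 cells was sequenced after an unstranded TruSeq preparation. Per the study's methods, reads were trimmed to 47 nt, collapsed, mapped by exact match and given one annotation each by a hierarchy. The authors deposited the counts of each mapped sequence per library, not normalized, and per the submitters' processing notes the build is mm9. Exact matching loses reads across exon junctions and over variants, and a read in a repeat or an overlapping gene can leave its gene.

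Counts were added up for each annotation. Of 14766 gene annotations 12446 match a current symbol and 1981 a synonym. Genes that passed filterByExpr were tested with edgeR 4.0.16 in R 4.3.3 (TMM, quasi-likelihood test, threshold 0.05), tested on simulated data. Reads were matched exactly to 1 GENCODE M21 transcript per gene. Shares were compared by exact permutation tests over libraries, without adjustment over the members. The alternatives were DESeq2 1.42.0, other scalings and filters, distinct sequences counted once, coding reads only, a replicate block and each library left out. Another was a median coverage after the study's methods, with quantile normalization and a regularizer of 10 (limma 3.58.1). That median was taken over all bases of 1 GENCODE transcript per gene. For Igfbp4 these include the 1737 bases after the RefSeq end, which held 0.29% of the reads that match the transcript.

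The members, the 4 IGF axis lists and the 5 marker lists were chosen with earlier results of these data known. Genes named are Cd24a, the members, the IGF ligands and receptors, in each IGF list up to 3 called genes with the largest increase and 3 with the largest decrease, and for each called member the 2 genes most like it. Markers, and genes named at few or no reads, are outside this rule. The replicate numbers did not pair the plates. Libraries of a group differed by more than sampling noise, least so CD24- replicates 1 and 2, and none was taken as a repeat deposit.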

Additional observations from a re-analysis of the deposited data

Results flagged for a closer look

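Reads that match a member but carry another annotation are not in the gene counts that were tested, but are in the values by exon and by part of the transcript above. They were looked at after seeing the data. A total of 2960 reads match the 3′ untranslated region of Igfbp4 and are annotated to the L2a repeat that lies there, 6.56% of all reads that match the transcript. They were at 56.0, 58.0 and 37.5 CPM in CD24- replicates 1, 2 and 3, and at 38.5, 32.1 and 35.1 CPM in the CD24+ replicates, with CD24+ replicate 1 above CD24- replicate 3. A total of 408 reads match Igfbp7 and are annotated to Polr2b, whose gene overlaps the last 85 bases of Igfbp7 on the other strand. They were at 1.16, 2.75 and 2.03 CPM in CD24- and at 8.81, 7.57 and 8.38 CPM in CD24+ libraries, without overlap of the groups. Without strand, they cannot be told from reads of Polr2b itself. With all reads that match a transcript counted, the log2 fold change was -0.41 for Igfbp4 (adjusted p = 0.0357, edgeR) and 1.94 for Igfbp7 (adjusted p = 2.59e-06, edgeR).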

How the results depend on the processing

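Of 144 recomputed values for 12 results, 129 were the same as the main value. For a fold change that means the same direction and call, and for a count a value within 1.5 times. Coding shares and shares of the summed level were judged by direction alone. The filter of at least 1 CPM in at least 3 libraries gave the main fit again (11125 genes tested, 5130 called). Its values are counted among these but were no separate check. Igfbp7 was called in each alternative and Igfbp6 in none. The log2 fold change of Igfbp4 lay between -0.54 and -0.31 with each library left out, 4 of these 6 without a call, and was -0.26 without a call with each distinct sequence counted once (the cause was not tested). The median-coverage estimate called 3245 genes (1516 higher) instead of 5130 (2652 higher). With each library left out, the called genes numbered 4069 to 5358 and the called genes of the IGF axis lists 24 to 33, against 30. Differences near 0 changed sign. The coding share of Igfbp7 differed by -0.0822 percentage points (CD24+ minus CD24-), by 4.6 with distinct sequences counted once and by -0.668 to 0.556 with each library left out. That of Igfbp6 differed by -6.66, and by -13.0 to 0.940 with each library left out. The Igfbp6 share of the summed level differed by -0.0726, by 0.262 with distinct sequences counted once, by 0.0733 without division by length, by 0.0485 with the RefSeq end of Igfbp4 and by -0.116 to 0.00602 with each library left out. For 22 named genes 332 of 348 values kept their call and direction, and none reversed. The call was lost for Lrp6 in 6 settings, for Cd44, Itgb3 and Kazald1 in 2 each, and for C1s, Irs1 and Stc1 in 1 each, the median-coverage estimate (log2 fold changes 0.11, 0.032 and -0.060). The groups share replicate numbers, but same-numbered libraries did not deviate together, with correlations of 0.014, -0.25 and -0.31 over genes. Under the replicate block, edgeR called 4567 genes, the log2 fold changes of Igfbp4, Igfbp6 and Igfbp7 were -0.41, 0.34 and 1.86, and no call of a member changed. The scalings left the median of all genes within 0.1 of 0.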
